A study of Arabidopsis thaliana with 9 samples.

Results

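The genes described are 9 chosen class III peroxidases of Arabidopsis thaliana out of 33977 genes counted in 9 RNA sequencing libraries. They are PRX33 (AT3G49110, also PRXCA), PRX34 (AT3G49120, PRXCB), PRX32 (AT3G32980), PRX37 (AT4G08770), PRX52 (AT5G05340), PRX71 (AT5G64120), PRX62 (AT5G39580), PRX4 (AT1G14540) and PRX5 (AT1G14550). They were picked by gene ID with their levels in these libraries already known, so their differences from wild type are given as descriptions without a test. All plants were of the Col-0 accession and were sampled at bolting. Stratification lasted 2 days at 4 °C, and growth was at 22 °C by day and 20 °C by night with 12 h of light. The dwarf group (n = 3) and the large group (n = 3) both had the genotype PPD3-RNAi T+, a transgene that targets PPD3 (AT1G76450, a plastid protein of the PsbP family) by RNA interference, and were told apart by phenotype. The WT group (n = 3) had neither the transgene nor an altered phenotype by its labels. The promoter of the transgene, the number of independent lines and the number of plants in a library are not stated in the labels. Replicates are labelled biological, and nothing more is said of how they were separated, so the p-values measure the spread between these samples.

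Class III peroxidases are secreted haem enzymes of plants. In the cell wall they use hydrogen peroxide to couple phenolic compounds, extensins and lignin precursors, which stiffens the wall, and in another cycle they produce reactive oxygen species that loosen it or act in defence. The hydrogen peroxide is supplied in part by NADPH oxidases of the plasma membrane, and laccases oxidise lignin precursors beside the peroxidases. PRX33 and PRX34 are known for the oxidative burst of leaves that meet microbial patterns, PRX37 and PRX71 for limiting growth when raised, and PRX52 for lignification of fibres in the stem.

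PRX33 stood far higher in both transgenic groups than in WT, PRX37 stood highest in the dwarf group, and PRX71 was higher in dwarf plants than in both other groups. For PRX37 and PRX71 the lowest dwarf library was only slightly above the highest other library, and neither gene was called in dwarf against large. The genes round PRX37 were also raised in the transgenic libraries. Among the remaining chosen members, the 5 that were tested overlapped between the groups, and PRX5 was hardly detected. Among the other 33 members of the family that were tested, 8 rose and 0 fell in dwarf plants (8.76% of all genes were called) and 5 rose and 0 fell in large plants against WT (4.22% of all genes). Without the library WT 1 these counts were 1 and 0, and the calls over all genes were 266 and 9. Some of these genes passed the filter on low counts only through the transgenic libraries, and could be called against WT only as rises.

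Each library held between 34660392 and 35217754 gene counts, so depth differed little. CPM are counts brought to a common library size, with the totals adjusted by trimmed means (TMM), and log2 fold changes come from edgeR's quasi-likelihood fit of all 9 libraries. The tissue labelled as aboveground carried green shoot transcripts, with 5 photosynthesis markers summing to 36100 to 41000 CPM in WT, 26700 to 34900 in large and 21600 to 45700 in dwarf libraries. Of 11 root markers, 9 were below 1 CPM in every library and 2 of these were at 0 in all, and their sum was 0.455 to 0.651 CPM in WT, 0.731 to 1.34 in large and 1.39 to 10.8 in dwarf libraries. The highest of these sums was that of dwarf 1, where IRT1, an iron transporter of the root, gave 9.44 CPM. All 10 floral markers were below 1 CPM in every library. The 12 xylem markers summed to 122 to 131 CPM in WT, 120 to 131 in large and 74.8 to 126 in dwarf libraries. In such bulk samples fewer cells of a type and less RNA per cell cannot be told apart. PPD3 itself had 87.6, 128 and 96.5 CPM in the dwarf, 86.7, 77.9 and 108 CPM in the large and 115, 100.3 and 91.1 CPM in the WT libraries, and the groups overlapped, with a log2 difference from WT of 0.03 in dwarf (edgeR adjusted p = 0.934) and -0.17 in large plants (edgeR adjusted p = 0.708). The groups are therefore named after their labels, which the PPD3 level does not separate from WT.

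PRX33 and PRX34 lie in tandem on the plus strand of chromosome 3 (TAIR10.1, chr3:18200587-18203265 and chr3:18207651-18210333), and each has 4 coding exons. Their coding sequences are identical at 90.7% of the aligned bases, with 99 mismatches. The longest run they share is shown because reads within it could come from either gene. It covers bases 813 to 923 of the PRX33 and 810 to 920 of the PRX34 coding sequence and is in capitals, with 20 bases on either side in lower case.
PRX33: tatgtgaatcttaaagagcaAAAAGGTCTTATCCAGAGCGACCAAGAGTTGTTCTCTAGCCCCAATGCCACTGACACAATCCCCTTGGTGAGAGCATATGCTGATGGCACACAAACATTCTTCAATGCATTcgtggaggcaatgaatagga
PRX34: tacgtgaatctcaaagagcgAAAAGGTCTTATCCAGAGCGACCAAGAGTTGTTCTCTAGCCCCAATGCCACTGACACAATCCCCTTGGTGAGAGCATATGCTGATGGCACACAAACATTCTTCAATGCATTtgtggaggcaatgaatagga
Of all 50 bp words of their exons, 7.23% of PRX33 and 7.47% of PRX34 occur in the other gene. No other annotated gene overlaps a chosen member.

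PRX33 had 7.90, 15.9 and 17.1 CPM in the WT libraries, 50.5, 80.6 and 121 CPM in the large libraries, and 203, 127 and 72.7 CPM in the dwarf libraries. Every transgenic library was above every WT library, while dwarf and large overlapped. The mean was 13.6 ± 5.0 CPM in WT, 84.2 ± 35.6 CPM in large and 134 ± 65.3 CPM in dwarf (SD, n = 3 each). The fitted log2 difference from WT was 3.30 (SE 0.48) in dwarf and 2.63 (SE 0.47) in large, 9.85-fold and 6.17-fold. Dwarf against large gave a log2 difference of 0.67 (95% interval -0.32 to 1.66, edgeR adjusted p = 0.42), so these libraries do not separate the groups, and the interval leaves room for differences either way.

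PRX34, the more abundant of the pair, had 608, 732 and 795 CPM in the WT libraries, 497, 1323 and 657 CPM in the large and 1631, 664 and 498 CPM in the dwarf libraries. The groups overlapped, and the spread came from dwarf 1 and large 2, which were both far above all other libraries. The log2 difference from WT was 0.39 (SE 0.47) in dwarf and 0.21 (SE 0.47) in large, and each turned sign without the high library of its group, to -0.29 without dwarf 1 and -0.30 without large 2. Dwarf against large was 0.17 (95% interval -0.90 to 1.24, edgeR adjusted p = 0.87), and it was -0.51 without dwarf 1 and -0.10 without large 1. Per transcript length, PRX33 made up 1.25, 2.06 and 2.05% of the pair in the WT libraries. It made up 8.99, 5.59 and 15.2% in the large and 10.8, 15.7 and 12.4% in the dwarf libraries. These shares of large and dwarf libraries were all above those of WT, and with this choice of genes that is a description.

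**Figure D1:**
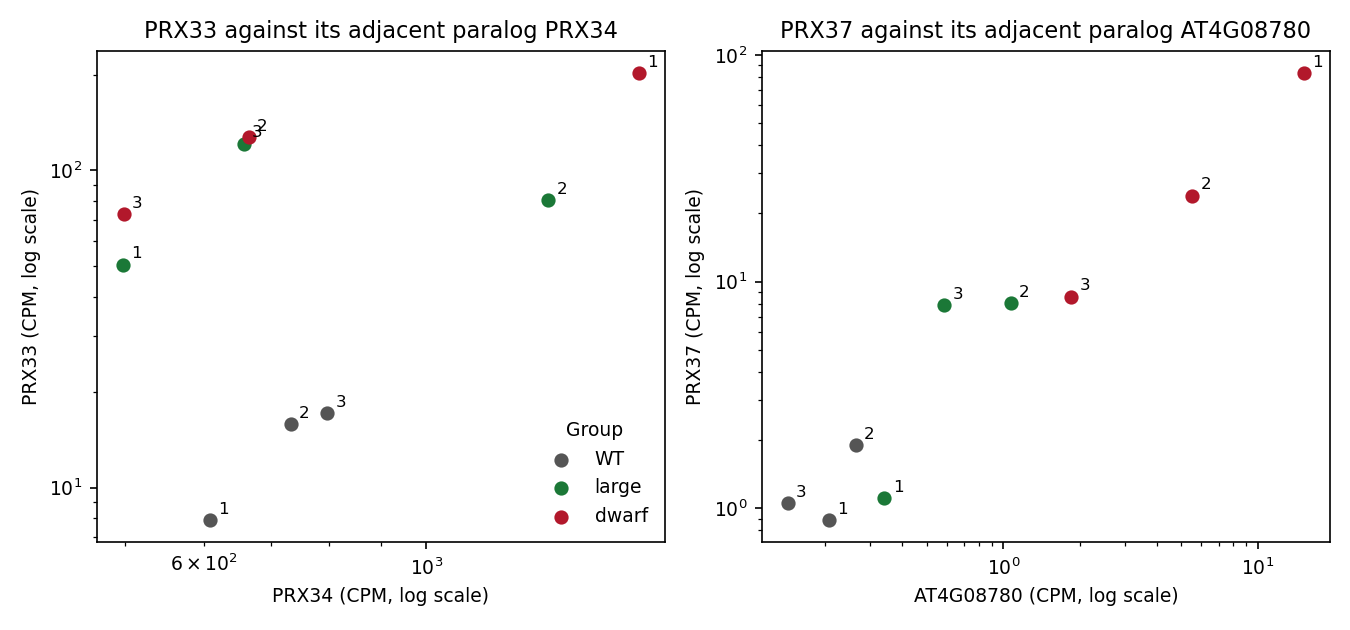
CPM of PRX33 against PRX34 and of PRX37 against AT4G08780 in each library, both axes on a log scale, with the replicate number beside each point. In the first panel the 6 transgenic libraries lie above the 3 WT libraries in PRX33 at PRX34 levels from 497 to 1631 CPM, and in the second panel both genes are highest in dwarf 1.

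PRX32, the closest of the chosen genes in sequence to this pair (83.4% identity to PRX33 and 84.4% to PRX34 over the coding sequence), was far lower. It had 5.80, 5.27 and 9.02 CPM in the WT, 7.57, 9.09 and 12.7 CPM in the large and 8.92, 7.02 and 13.1 CPM in the dwarf libraries. All groups overlapped. The log2 difference from WT was 0.53 (SE 0.30) in dwarf and 0.55 (SE 0.30) in large, and dwarf against large was -0.02 (95% interval -0.68 to 0.65, edgeR adjusted p = 0.984). None of its 50 bp words occurs elsewhere in the genome.

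PRX37, whose overexpression is known to give dwarf plants with more phenolic compounds in their walls, lies on the minus strand at chr4:5598037-5600398. It is followed on the chromosome by AT4G08780, another class III peroxidase, on the plus strand at chr4:5604105-5608290, so that the genes point away from each other. Their coding sequences are 93.8% identical. The longest run they share, bases 910 to 1010 of both coding sequences, is shown in capitals because it limits how well reads of the 2 genes can be told apart.
PRX37: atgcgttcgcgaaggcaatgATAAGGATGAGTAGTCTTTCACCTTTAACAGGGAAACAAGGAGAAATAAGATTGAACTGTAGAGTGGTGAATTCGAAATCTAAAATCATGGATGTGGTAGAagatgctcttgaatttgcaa
AT4G08780: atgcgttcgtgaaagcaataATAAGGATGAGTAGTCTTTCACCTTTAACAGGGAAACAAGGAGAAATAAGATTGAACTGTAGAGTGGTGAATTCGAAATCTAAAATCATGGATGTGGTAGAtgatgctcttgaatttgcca
Of the 50 bp words, 6.07% of PRX37 and 7.44% of AT4G08780 occur in the other gene.

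The 250 bases before the annotated starts of PRX37 (chr4:5600399-5600648, minus strand) and AT4G08780 (chr4:5603855-5604104, plus strand) are shown because the 2 genes had their highest levels in the same library, dwarf 1. They share a run of 31 bases, in capitals, which lies 110 to 140 bases before the start in PRX37 and 160 to 190 bases before it in AT4G08780.
PRX37 upstream: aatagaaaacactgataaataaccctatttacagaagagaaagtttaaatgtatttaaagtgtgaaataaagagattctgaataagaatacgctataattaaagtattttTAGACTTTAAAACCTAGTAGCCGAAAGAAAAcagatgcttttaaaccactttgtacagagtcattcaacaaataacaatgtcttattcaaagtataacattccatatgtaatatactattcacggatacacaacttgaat
AT4G08780 upstream: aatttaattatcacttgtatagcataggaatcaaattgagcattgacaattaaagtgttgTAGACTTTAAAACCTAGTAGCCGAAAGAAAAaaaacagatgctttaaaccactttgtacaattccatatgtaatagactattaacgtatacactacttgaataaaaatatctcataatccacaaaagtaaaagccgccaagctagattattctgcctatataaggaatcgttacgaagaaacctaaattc
PRX33, PRX34 and PRX71 also had their highest levels in dwarf 1, so that peak is not particular to PRX37 and AT4G08780. In the same windows of PRX33 and PRX34 the longest shared run was 8 bases. Whether the shared stretch bears on the levels was not tested.

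PRX37 had 0.888, 1.90 and 1.05 CPM in the WT libraries, 1.11, 8.02 and 7.89 CPM in the large libraries, and 83.0, 23.9 and 8.58 CPM in the dwarf libraries. Every dwarf library was above every other library, by a small margin in dwarf 3, whereas large 1 lay within the WT range. The mean was 1.28 ± 0.544 CPM in WT, 5.67 ± 3.95 CPM in large and 38.5 ± 39.3 CPM in dwarf (SD, n = 3 each), so the SD of the dwarf group was as large as its mean. The log2 difference from WT was 4.91 (SE 1.00) in dwarf and 2.15 (SE 0.96) in large. Without dwarf 1 the former was 3.67. Dwarf against large was 2.76 (95% interval 0.78 to 4.74), with an edgeR adjusted p of 0.138, which was 0.0229 without dwarf 3 and ranged up to 0.321 over 17 alternatives. Dwarf 3 was the lowest dwarf library. The fit without it called 16.1% of all genes in dwarf against large, where the main fit called 0.649%.

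AT4G08780 had 0.207, 0.263 and 0.142 CPM in the WT libraries, 0.341, 1.07 and 0.585 CPM in the large libraries, and 15.2, 5.52 and 1.85 CPM in the dwarf libraries. The dwarf libraries came in the same order as for PRX37. It rose in dwarf plants by 5.18 on the log2 scale (SE 0.84, edgeR adjusted p = 0.0103), a call lost without WT 1 or WT 2 (highest adjusted p 0.0592 over all alternatives). At these WT levels the gene passed the filter on low counts only through the transgenic libraries, so against WT it could be called only as a rise. In large plants its log2 difference was 1.69 (edgeR adjusted p = 0.366), and dwarf against large gave 3.49 (edgeR adjusted p = 0.0662). Over 17 alternatives the latter adjusted p ran from 3.32e-05, with the DESeq2 Wald test, to 0.23. It was under 0.05 in 2 of them, DESeq2 and the fit without dwarf 3. These called 8.45 and 16.1% of all genes in dwarf against large, where the main fit called 0.649%. Per length, PRX37 made up 78.3 to 86.2% of the 2 genes in WT, 73.2 to 91.9% in large and 78.5 to 82.2% in dwarf libraries, ranges that overlapped.

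The genes round PRX37 were themselves raised in all 6 transgenic libraries. Over the 100 tested genes on either side, at -3133.2 to 893.0 kb from PRX37 along the map, the median log2 ratio to the WT mean was 0.96 in dwarf 1, 0.58 in dwarf 2, 0.54 in dwarf 3, 0.57 in large 1, 0.59 in large 2 and 0.55 in large 3. PRX37 exceeded this step in 5 of the 6 transgenic libraries, with 0 to 2 of the 200 neighbours above it. In large 1 it was below the step, with 192 of the 200 neighbours above it. In the WT libraries, where PRX37 had few counts, 194 (WT 1), 2 (WT 2) and 180 (WT 3) of the 200 were above it. The rank alone therefore does not set the transgenic libraries apart. With the neighbours' step taken out of each library, the log2 difference of PRX37 from WT was 4.08 in dwarf and 1.58 in large, and that of AT4G08780 was 4.38 in dwarf (edgeR adjusted p = 0.0207). The neighbourhood of PRX4 stood at 0.53 in dwarf 3, and those of 6 other tested members were between -0.06 and 0.07 in all transgenic libraries, so the values of PRX33, PRX34 and PRX71 lie on no such step. The cause of the step was not tested.

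**Figure D2:**
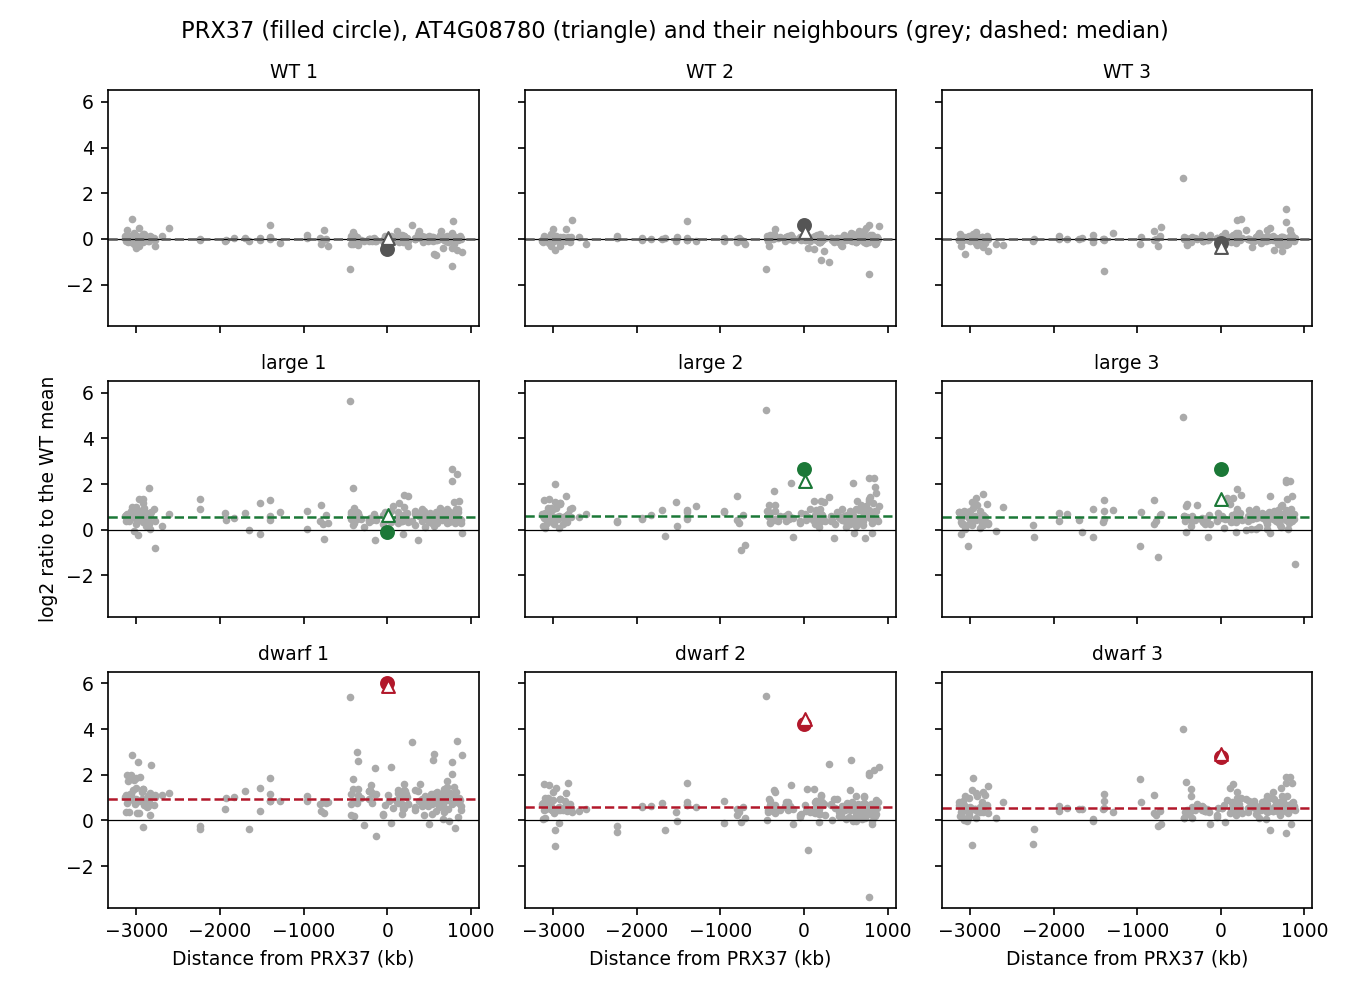
Log2 ratio to the WT mean of PRX37 (filled circle), AT4G08780 (triangle) and their tested neighbours (grey) by distance from PRX37 in kb, 1 panel per library, with the neighbours' median dashed. The median is near 0 in WT and between 0.54 and 0.96 in the transgenic libraries, and PRX37 lies above it in all of these but large 1.

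PRX71, known to restrict growth when the cell wall is damaged, lies on the minus strand at chr5:25659257-25661007. It had 33.2, 18.0 and 32.0 CPM in the WT libraries, 24.5, 32.98 and 24.5 CPM in the large libraries, and 119, 59.6 and 33.6 CPM in the dwarf libraries. The lowest dwarf library was barely above the highest of the other groups, and large and WT overlapped. The log2 difference from WT was 1.35 (SE 0.42) in dwarf and -0.02 (SE 0.42) in large, the latter -0.25 to 0.13 over the alternatives. Dwarf against large was 1.37 (95% interval 0.42 to 2.32, edgeR adjusted p = 0.129). Without dwarf 3, the lowest dwarf library, this adjusted p was 0.0131. That fit called 16.1% of all genes in dwarf against large, where the main fit called 0.649%. Without dwarf 1 the log2 difference was 0.77, and over 17 alternatives the adjusted p went up to 0.345.

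The 250 bases before the PRX71 start (chr5:25661008-25661257) are shown because they hold 3 copies of the W box, the element bound by WRKY transcription factors, at 180, 68 and 49 bases before the start. The search took the letters TTGACC and TTGACT on both strands, and the matches are in capitals, the first of them as its reverse complement.
PRX71 upstream: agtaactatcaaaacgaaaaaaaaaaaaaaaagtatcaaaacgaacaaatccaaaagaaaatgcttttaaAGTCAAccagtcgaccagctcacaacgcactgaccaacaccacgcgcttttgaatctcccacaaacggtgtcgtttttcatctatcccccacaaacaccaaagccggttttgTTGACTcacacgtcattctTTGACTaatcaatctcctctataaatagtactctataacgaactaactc
Of 27443 windows of this length before annotated genes, 28.4% held at least 1 W box, as did 22 of the 73 windows of the family and 3 of the 9 chosen ones (PRX71, PRX62 and PRX5). PRX33, PRX34 and PRX37 had none in their windows. How many of all windows hold 3 copies, as that of PRX71 does, was not counted.

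PRX52, the enzyme of stem fibre lignification, had 6.89, 4.68 and 10.2 CPM in WT, 1.59, 11.6 and 3.80 CPM in large and 7.16, 1.95 and 2.62 CPM in dwarf libraries. The groups overlapped, and 1 library in each transgenic group, large 2 and dwarf 1, was above the rest of its group, the same pair that was high in PRX34. The log2 difference from WT was -0.89 (SE 0.71) in dwarf and -0.36 (SE 0.70) in large, where it was 0.062 without large 1 and -1.43 without large 2. Dwarf against large was -0.53 (95% interval -2.14 to 1.08, edgeR adjusted p = 0.718).

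PRX62, which acts in root hair growth, was low, at 2.16, 0.263 and 1.88 CPM in WT, 0.398, 0.274 and 0.409 CPM in large and 1.43, 0.0279 and 0.586 CPM in dwarf libraries. PRX4, a gene induced by bacterial flagellin, had 1.54, 1.35 and 1.85 CPM in WT, 0.341, 2.16 and 0.292 CPM in large and 1.81, 0.502 and 0.617 CPM in dwarf libraries. Both overlapped between all groups. PRX5, next to PRX4 on chromosome 1, had 29 counts over all libraries and at most 0.313 CPM, and was not tested. It had 1 count in each dwarf library, 3, 6 and 1 in the large and 2, 3 and 11 in the WT libraries, so that dwarf lay below WT on very few counts. Dwarf against large was 0.92 for PRX62 (95% interval -1.37 to 3.21, edgeR adjusted p = 0.651). It was 0.07 for PRX4 (95% interval -1.67 to 1.80, edgeR adjusted p = 0.972). The intervals leave room for large differences either way.

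**Figure D3:**
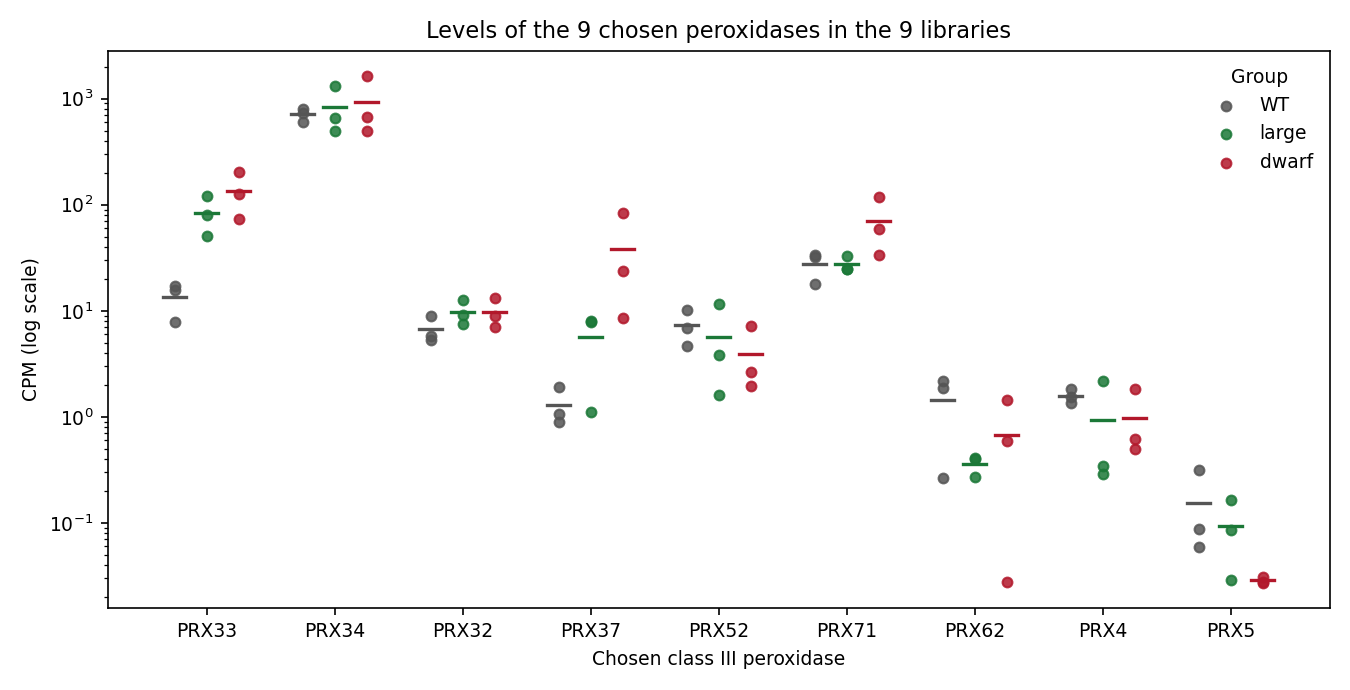
CPM on a log scale of the 9 chosen peroxidases, with each point 1 library and each bar the mean of a group of 3. PRX33 lies higher in all transgenic libraries than in WT, PRX37 spreads from 8.58 to 83.0 CPM in the dwarf group, and PRX5 is at most 0.313 CPM.

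Of the 8 chosen members tested, edgeR called 2 in dwarf against WT, PRX33 and PRX37, where 6.54% of all genes tested were called higher. It called 1 in large against WT, PRX33, where 3.89% were called higher, and 0 in dwarf against large, where 0.649% were called in either direction. In the last comparison 2 members had an unadjusted p under 0.05, as did 19.9% of all genes, and DESeq2 called 2, beside 8.45% of all genes. The groups did not overlap, with the member higher, for 3 of the 8 in dwarf against WT (16.8% of all genes), 1 in large against WT (19.7%) and 2 in dwarf against large (8.79%), and for 0 with the member lower (12.2, 13.9 and 11.2% of all genes). The members were chosen on these contrasts, so nothing is read from these counts. PRX33 lost its call in large against WT without large 1, large 2, large 3, WT 1 or WT 2. PRX37 lost its call in dwarf against WT without WT 1, WT 2 or WT 3, and with the replicate number as a block.

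Per transcript length, in RPKM, the family in WT was led by PRXR1 (AT4G21960) at 2174 ± 94.4, then PRX34 at 468 ± 62.8 and AT1G71695 at 104 ± 16.7. PRX71 had rank 5 at 20.7 ± 6.29 and PRX33 rank 9 at 8.71 ± 3.20 (SD, n = 3). The range of PRX33 over the WT libraries, 5.05 to 10.95 RPKM, overlapped with that of AT4G11290 just above it in that order. In large plants PRX33 had rank 4, at 53.8 ± 22.8 RPKM, and in dwarf plants rank 3, at 85.8 ± 41.7 RPKM, where it overlapped with AT1G71695 at 84.3 ± 15.0 RPKM. PRX71 had rank 5 in dwarf plants at 52.6 ± 32.5 RPKM and PRX37 rank 7 at 27.5 ± 28.1 RPKM. PRX34 took 31.8% of the family's summed RPKM in dwarf 1 and 26.8% in large 2, against 10.6 to 17.6% in the other 7 libraries.

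The genes with a symbol and a mean of at least 5 CPM whose log2 CPM ran most like those of PRX33 over the 9 libraries were GLL22 (Pearson r = 0.978), MSI3 (0.976), RH1 (0.976), MEF18 (0.968) and EIF3A (0.965). For PRX37 they were EXT4 (r = 0.958), NIA1 (0.947), MED31 (0.945), DGK3 (0.943) and KT1 (0.939). These are the highest of 6953 genes, they follow the same difference between groups, and they are descriptions with no test. A high r does not mean a change of like size. The mean of MED31 was 8.03 CPM in WT, 8.16 CPM in large and 8.79 CPM in dwarf libraries. MSI3, RH1 and EIF3A lie on chromosome 4. EXT4, a structural extensin of the wall, had 54.9, 58.5 and 50.8 CPM in the WT, 36.2, 77.0 and 90.5 CPM in the large and 265, 186 and 122 CPM in the dwarf libraries. Its dwarf libraries stood in the order of PRX37. Among the chosen members, PRX33 and PRX37 had r = 0.874 over the 9 libraries and PRX52 and PRX4 had r = 0.874, again with the group differences included.

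Of the 64 other class III peroxidases, 33 passed the filter on low counts, 21 had counts but at most 0.494 CPM in any library, and 10 had 0 counts in all. Some of the 33, such as AT2G18150 with 0, 2 and 9 counts in the WT libraries, passed this filter only through the transgenic libraries. Against WT such genes could be called only as rises, so the one-sided counts below are partly set by the filter and are descriptions. In dwarf against WT, 8 of the 33 rose and 0 fell at an edgeR adjusted p under 0.05, which is 24.2% against 8.76% of all genes tested (6.54% higher and 2.22% lower). Their median log2 difference was 0.61, against 0.05 for all genes, and 22 of the 33 were positive, against 56.4% of all genes. The libraries did not overlap for 15 that were higher and 2 that were lower, beside 16.8 and 12.2% of all genes (28.9% in either direction). In large against WT, 5 rose and 0 fell, 15.2% against 4.22% of all genes (3.89% higher and 0.327% lower), with a median of 0.52 against 0.01. In this comparison 28 of 33 were positive, against 51.8% of all genes, and the libraries did not overlap for 10, all of them higher, beside 33.6% of all genes. The 2 comparisons share the WT libraries. With upper-quartile scaling 7 rose and 1 fell in dwarf against WT, and 5 rose and 0 fell in large against WT. Over all genes that scaling gave 1812 and 792 calls. DESeq2 gave 12 that rose and 2 that fell in dwarf against WT, where it called 14.3% of all genes. These counts rest on WT libraries: without WT 1 it was 1 and 0 in the 2 comparisons, and without WT 2 it was 2 and 0, while without WT 3 it was 9 and 5. Over all genes the calls without WT 1 were 266 and 9, without WT 2 they were 293 and 9, and without WT 3 they were 724 and 548. In large against WT it was 3 without large 1, 2 without large 2 and 2 without large 3, and 3 with the replicate block. Over all genes those fits called 53, 155, 88 and 618, where the main fit called 838. In dwarf against large 4 were called without dwarf 3, beside 16.1% of all genes in that fit. In dwarf against large edgeR called 0 of the 33, where 0.272% of all genes were called higher and 0.377% lower, with 7 at an unadjusted p under 0.05 beside 19.9% of all genes, and DESeq2 called 3 beside 8.45% of all genes. There 17 of the 33 were positive (51.9% of all genes), and 2 higher and 6 lower ones did not overlap, beside 20.0% of all genes in either direction. The sum of the root markers was also higher in the transgenic libraries (0.455 to 0.651 CPM in WT, 0.731 to 1.34 CPM in large and 1.39 to 10.8 CPM in dwarf libraries). Without IRT1 the other 10 root markers summed to 0.351 to 2.56 CPM over all libraries. That range was not split by group, so it does not show whether the groups differed without IRT1. The part of root transcripts in the counts of peroxidases was not tested.

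AT5G58390 had 7.04, 8.48 and 9.11 CPM in WT, 15.5, 20.2 and 28.5 CPM in large and 26.4, 21.7 and 24.8 CPM in dwarf libraries. It rose by 1.56 on the log2 scale in dwarf (SE 0.21, edgeR adjusted p = 0.00726) and by 1.38 in large plants (SE 0.21, edgeR adjusted p = 0.0172). The transgenic libraries were all above WT and overlapped with each other. Its call in dwarf plants held without each library in turn, and that in large plants was lost without WT 1 or WT 2.

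AT3G21770 had 2.13, 2.19 and 3.96 CPM in WT, 9.39, 11.7 and 10.2 CPM in large and 6.37, 9.09 and 7.59 CPM in dwarf libraries. It rose by 1.91 in large (SE 0.25, edgeR adjusted p = 0.0112) and by 1.47 in dwarf plants (SE 0.25, edgeR adjusted p = 0.0121). Here all 3 large libraries stood above every dwarf library. Without WT 1 or WT 2 both calls were lost, and the one in dwarf plants also in the fit of 2 groups.

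AT4G36430 had 0.296, 0.380 and 0.285 CPM in WT, 0.768, 3.50 and 1.64 CPM in large and 5.27, 3.62 and 3.02 CPM in dwarf libraries. It rose by 3.62 in dwarf (SE 0.55, edgeR adjusted p = 0.00858) and by 2.61 in large plants (SE 0.55, edgeR adjusted p = 0.0357). The former call was lost without WT 1 and the latter without any of 6 libraries, among them all 3 of WT. The latter was lost as well with the replicate block and with neighbours' steps taken out.

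AT2G38380 and AT2G38390 are neighbours on chromosome 2 that share under 1% of their 50 bp words. AT2G38380 had 0.207, 0.322 and 0.939 CPM in WT, 1.93, 4.46 and 5.17 CPM in large and 6.15, 4.68 and 3.86 CPM in dwarf libraries. It rose by 3.31 in dwarf (edgeR adjusted p = 0.0114) and by 2.96 in large plants (edgeR adjusted p = 0.0274), the latter call being lost without large 1, large 2, large 3, WT 1 or WT 2. AT2G38390 had 0, 0 and 6 counts in the WT libraries and 319, 195 and 106 counts in the dwarf libraries. Its fitted rise of 6.57 on the log2 scale in dwarf plants (edgeR adjusted p = 0.0106) rests on those 6 counts and ran from 6.01 to 10.67 over the alternatives.

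AT2G18150 had 0, 0.0585 and 0.256 CPM in WT, 0.398, 1.75 and 1.26 CPM in large and 2.72, 1.98 and 1.70 CPM in dwarf libraries. It rose by 4.28 in dwarf plants (SE 0.81, edgeR adjusted p = 0.0171). AT2G22420 rose by 0.54 in dwarf (SE 0.14, edgeR adjusted p = 0.0479) and 0.73 in large plants (SE 0.14, edgeR adjusted p = 0.0309). The former of these calls held in only 1 of 9 fits without a library, and the latter in 3 of 9, and both were lost with the replicate block. AT2G18150 and AT2G38390, like AT2G38380 in dwarf plants, lost their calls without WT 1 or WT 2.

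PA2 (AT5G06720) had 2.25, 2.11 and 2.48 CPM in WT, 1.28, 1.64 and 2.19 CPM in large and 4.04, 1.2 and 2.75 CPM in dwarf libraries. The groups of dwarf and WT overlapped, with a log2 difference of 0.22 (edgeR adjusted p = 0.758). PRXR1, the most abundant member, had 3817, 4160 and 3952 CPM in WT, 4537, 3730 and 3769 CPM in large and 3167, 3115 and 3102 CPM in dwarf libraries. Its dwarf libraries lay below all others, but with a log2 difference of -0.35 it was not called (edgeR adjusted p = 0.171).

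**Figure D4:**
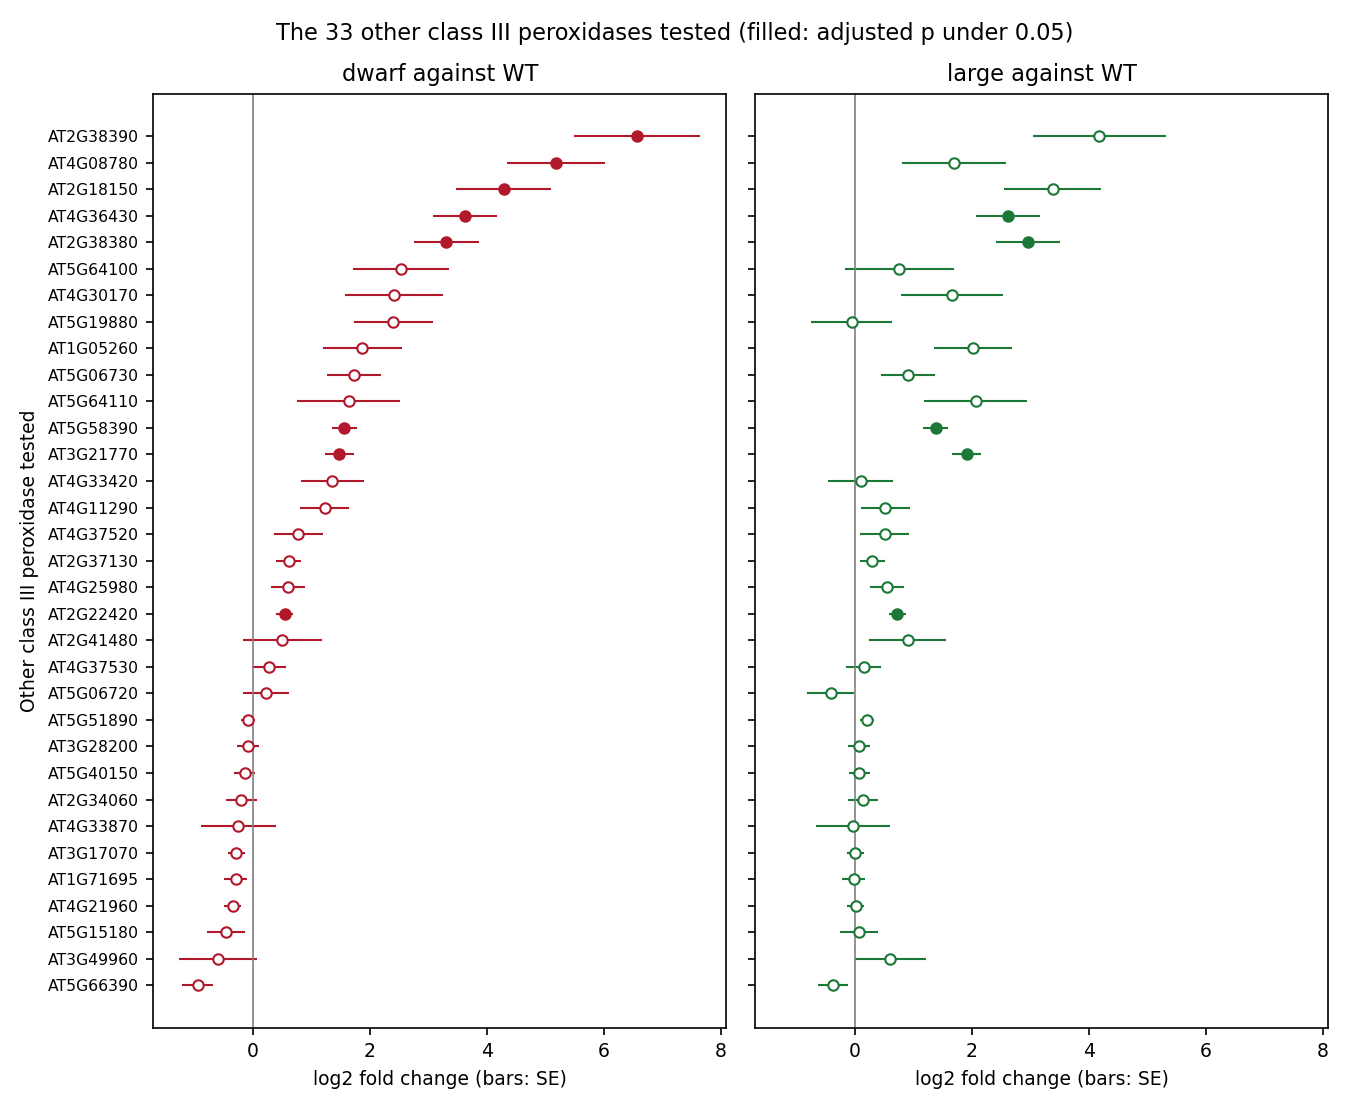
Log2 fold change against WT, with its SE, of the 33 other class III peroxidases tested, in the dwarf and the large group, ordered by the value in dwarf plants, with filled points at an edgeR adjusted p under 0.05. In dwarf plants 8 points and in large plants 5 are filled, all to the right of 0.

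Of 10 NADPH oxidase genes, which make superoxide outside the cell, 5 were tested and 2 rose in dwarf plants, where 6.54% of all genes were called higher. RBOH F (AT1G64060) had 15.8, 14.1 and 14.7 CPM in WT, 19.0, 22.8 and 19.3 CPM in large and 53.4, 28.6 and 20.8 CPM in dwarf libraries, a rise of 1.21 on the log2 scale (SE 0.29, edgeR adjusted p = 0.0383) that was called in 2 of 9 fits without a library and lost with neighbours' steps taken out, with the replicate block and in the fit of 2 groups. AT4G11230 rose by 2.37 (SE 0.56, edgeR adjusted p = 0.0354), on a stretch of chromosome 4 whose neighbours stood at 0.55 to 1.08. Its call held in 1 of 9 fits without a library and was lost with that step taken out and in the fit of 2 groups. It had only 0.237, 0.117 and 0.370 CPM in the WT libraries. It passed the filter on low counts only through the transgenic libraries, so against WT it could be called only as a rise. In large against WT 0 were called, the smallest edgeR adjusted p being that of AT4G11230 (0.0757). In dwarf against large 0 were called, the smallest being that of AT1G19230 (0.137). RBOHD, the main oxidase of pattern-triggered bursts, had a log2 difference of 0.14 in dwarf plants (edgeR adjusted p = 0.632).

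Of 17 laccases 13 were tested, and in dwarf plants 2 rose and 2 fell, beside 6.54% of all genes called higher and 2.22% called lower. LAC3 rose by 4.88 (edgeR adjusted p = 0.0162), from 0, 0 and 0.171 CPM in WT to 1.81, 1.31 and 2.31 CPM, a size that rests on the few WT counts. LAC5 rose by 2.60 (edgeR adjusted p = 0.0403), from 0.0296, 0.117 and 0.142 CPM in the WT libraries. It was called in 2 of 9 fits without a library, but not with the replicate block, the steps taken out or the fit of 2 groups. LAC3 and LAC5 passed the filter on low counts only through the transgenic libraries, so against WT they could be called only as rises. LAC2 fell by 1.55 (edgeR adjusted p = 0.0152), from 1.98, 2.19 and 2.08 CPM in WT to 1.02, 0.530 and 0.586 CPM in dwarf libraries. LAC11, a laccase of stem lignification, fell by 0.63 (edgeR adjusted p = 0.024), from 15.4, 13.8 and 16.0 to 8.24, 9.98 and 11.0 CPM. Without WT 1 or WT 2 the calls of LAC3, LAC2 and LAC11 were lost, and that of LAC11 also without dwarf 2 or WT 3 and with the replicate block. In the fit of 2 groups LAC2 and LAC11 lost theirs. The xylem markers, of which LAC17 is also a laccase, summed to 74.8, 79.7 and 126 CPM in the dwarf libraries and to 122 CPM or more in WT, and their part in this was not tested. No laccase was called in large plants or in dwarf against large, where the smallest adjusted p were those of LAC13 (0.0846) and LAC11 (0.0518).

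Of 9 extensin and leucine-rich repeat extensin genes, whose proteins peroxidases cross-link, 6 were tested, of which 2 rose in dwarf plants (6.54% of all genes called higher) and 1 in large plants (3.89%). EXT4 rose by 1.80 in dwarf plants (edgeR adjusted p = 0.0191), with neighbours that stood at 0.53 in dwarf 1, 0.58 in dwarf 2 and -0.05 in dwarf 3. Without WT 1, WT 2 or WT 3 its call was lost. LRX3 (AT4G13340) rose by 1.01 in dwarf (edgeR adjusted p = 0.00515) and by 0.50 in large plants (edgeR adjusted p = 0.0363). Its neighbours on chromosome 4 stood at 0.51 to 0.91 in dwarf and 0.56 to 0.62 in large libraries, and with that step taken out the log2 difference was 0.36 in dwarf and -0.09 in large plants, neither of them called. In dwarf against large 0 were called, the smallest adjusted p being that of LRX3 (0.0657).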

How the data were processed

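RNA of aboveground tissue at bolting was sequenced from 9 libraries, 3 per group, as paired 100 bp reads from a kit that does not mark strand. The authors deposited whole-number counts of reads per gene with no normalization. Trim Galore 0.4.1, STAR 2.7.0a and TAIR10 were used, per the submitters' processing notes. No source used here names the counting program, annotation release or strand setting. Lines that name no gene were left out of totals, among them 0.228 to 0.309% ambiguous reads.

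The counts were scaled by TMM, filtered with filterByExpr (19870 genes left) and fitted in edgeR 4.0.16 (R 4.3.3, limma 3.58.1) by the quasi-likelihood test, with 3 groups, all 9 libraries and no block. A call means a p under 0.05 after Benjamini-Hochberg adjustment over the 19870 genes. SE was derived from the F statistic, as the size of the log2 change divided by the root of F. RPKM are CPM per kb of exon. The r values used log2 CPM with a prior count of 2. The fit was tested on simulated counts of dwarf against WT (19727 genes), where 54 of 100 genes changed 2-fold and 94 of 100 changed 4-fold were called. Members and gene lists were chosen with earlier results of these data known. The genes named are the 9 members, every called gene of the lists up to 8 per list and comparison, otherwise the 1 with the smallest p, AT4G08780, AT5G06720, PPD3 and the 5 genes most like PRX33 and PRX37. PRXR1, AT1G71695, AT4G11290, RBOHD and IRT1 were named after their values were seen. Sequences and positions are from the RefSeq annotation and genome of TAIR10.1, to which 32548 IDs matched. The files give IDs only. Alternatives were other scalings and filters, the fit of 2 groups, a replicate block, DESeq2 1.42.0, neighbours' steps taken out and each library left out.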

Additional observations from a re-analysis of the deposited data

How the results depend on the processing

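With the fit of only the groups compared, 467 genes were called in dwarf against WT, 2205 in large against WT and 0 in dwarf against large. DESeq2 called 3118, 1792 and 1677. With neighbours' steps taken out 822 were called in dwarf against WT and 313 in large against WT. Replicate numbers are shared by the groups, but same-numbered libraries deviated together with r from -0.24 to 0.426 over 9 pairs, and others from -0.508 to 0.575 over 18 pairs, so the numbers were not taken as pairs. With the replicate block, 1263, 618 and 0 genes were called, 1 chosen member in dwarf against WT and 3 other peroxidases in large against WT. DESeq2 called 14 other peroxidases in dwarf against WT, and in dwarf against large 2 chosen members and 3 others. Leaving out 1 library gave 266 to 4477 genes in dwarf against WT, 9 to 1599 in large against WT and 0 to 3236 in dwarf against large. It gave 1 to 3, 0 to 1 and 0 to 2 chosen members, and 1 to 12, 0 to 6 and 0 to 4 other peroxidases. Upper-quartile scaling moved the share of higher calls from 74.7 to 57.9% in dwarf against WT and from 41.9 to 29.3% in dwarf against large. The sign turned for the values that follow. With steps taken out, PRX4 in dwarf against large was -0.072 and LRX3 (AT4G13340) in large against WT -0.085. Over the fits without 1 library, dwarf against large ran from -0.51 (without dwarf 1) to 0.69 for PRX34, -0.30 to 0.22 for PRX32, -1.31 to 0.54 (without large 2) for PRX52, -0.26 to 1.48 for PRX62, -0.74 to 1.62 for PRX4, -0.016 to 0.44 for AT5G58390, -0.39 to 0.60 for AT4G11230 and -0.33 to 0.68 for LAC5 (AT2G40370). Dwarf against WT ran from -0.21 (without dwarf 1) to 0.57 for AT5G06720 and from -0.12 to 0.026 for LAC13 (AT5G07130). Large against WT ran from -0.22 to 0.014 for LAC2 (AT2G29130) and from -0.44 to 0.57 for AT1G19230. Of the chosen members against WT, PRX34 ran from -0.29 to 0.69 in dwarf and from -0.30 to 0.46 in large, and in large PRX52 ran from -1.43 to 0.062 and PRX71 from -0.25 to 0.13. The causes were not tested. PRX5 had too few counts to be tested.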
